A study of Mus musculus with 12 samples.

Results

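The study set KK mice against C57BL/6J mice and measured liver RNA with 1 Affymetrix whole-transcript array per mouse. The genes described here are 35 genes of fatty acid and triglyceride synthesis, chosen by symbol from a list of pathway genes drawn up with earlier results of these data known, and all 35 had exactly 1 probe set among the 21212 measured. The groups were 3 KK females, 3 KK males, 3 C57BL/6J females and 3 C57BL/6J males, all aged 8 weeks, on chow, housed singly for 3 days and without food for 4 hours before the liver was taken. KK mice are an inbred line used as a model of obesity with diabetes, and C57BL/6J is the common reference strain. One label gives the strain as KK/HIJ and another as KK/J, and no allele, transgene or drug treatment is listed for any group. The labels name no litter, batch or hour of collection, so p-values measure only the spread between these mice.

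Liver makes fatty acids from citrate that leaves the mitochondrion. Cleavage of citrate gives acetyl-CoA, carboxylation gives malonyl-CoA, and fatty acid synthase joins malonyl units with electrons from NADPH. The chain is then lengthened by elongases, desaturated, activated to acyl-CoA and attached to glycerol, and the last acyl transfer gives triglyceride. SREBP-1c, which acts downstream of insulin, and ChREBP, which acts downstream of glucose, are the transcription factors best known for inducing these genes after a meal.

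Values are log2 expression values, so a difference of 1 is a doubling, and levels of different genes are not compared because each is read by its own probes. A gene was called, and is said to have risen or fallen, at an adjusted p under 0.05 by limma with Benjamini-Hochberg adjustment over all probe sets. SDs are over 3 mice, and SE is that of the fit. The median of the arrays lay between 5.90 and 6.03. The mean of 6 hepatocyte markers, albumin among them, lay between 12.88 and 13.04 in every array. It was lower in KK males (12.88 to 12.98) than in C57BL/6J males (13.00 to 13.04). The level of absent transcripts, read from 3 Y-linked genes in the 6 female arrays, was 3.79 to 4.66, and none of the 35 genes was inside that range on average over all mice. For other genes it is only a guide, as each has its own probes, and a value above it does not show detection.

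Over both sexes 8 of the 35 genes rose in KK liver and 4 fell. The rises were Mogat1, Thrsp, Acacb, Elovl5, Scd1, Fads1, Lpin2 and Agpat3, and the falls were Lpin1, Acsl3, Mid1ip1 and Elovl2. The other 23 were not called, and among them were both named transcription factors and the core synthesis genes Acly, Acaca and Fasn. The 12 called genes were 34.3% of the list, against 11.7% of all probe sets and 20.2% of the 10606 probe sets with a mean above the median, where 31 of the 35 genes lay. In 6 of the 8 genes that rose every KK mouse lay above every C57BL/6J mouse, and in 2 of the 4 that fell every one lay below, against 2.66% and 3.32% of all probe sets. By direction, 5.42% of all probe sets were called higher and 6.31% lower. The median difference of the 35 genes was 0.06, beside 0.01 over all probe sets, with 23 genes higher and 12 lower. The median size of the difference, whatever its sign, was 0.19, beside 0.07 over all probe sets. Here and below, RNA of whole liver was measured, so fewer cells of a type and less RNA per cell cannot be told apart. Sequence differences between the strains under a gene's probes were not examined either.

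**Figure D1:**
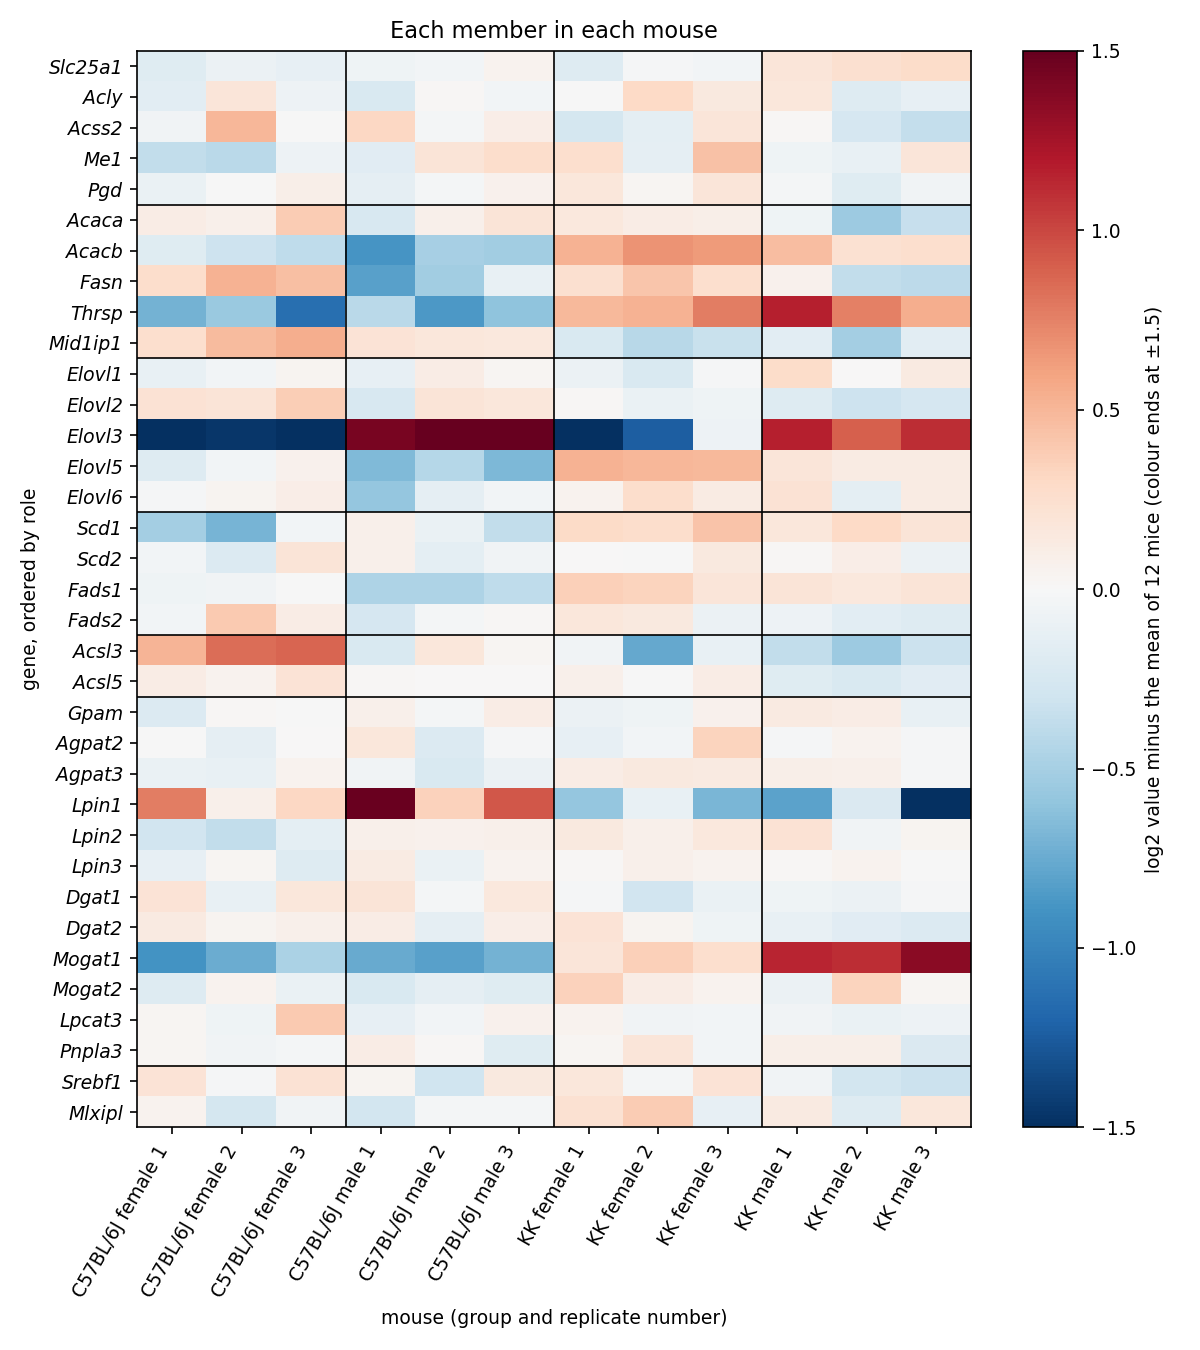
Log2 value of each of the 35 genes (rows, ordered by role) in each of the 12 mice (columns, 3 per group), minus that gene's mean over all mice; red is above and blue below the mean, and colours end at 1.5. Thrsp, Acacb and Mogat1 are red in all 6 KK mice, Mid1ip1 and Lpin1 are blue in all 6, and Elovl3 separates the males from the females.

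In females 7 of the genes rose and 2 fell in KK, or 25.7% of the list against 6.5% of all probe sets (3.18% higher, 3.31% lower) and 11.1% of those with a mean above the median. In males 5 rose and 2 fell, or 20.0% against 5.15% (2.08% higher, 3.06% lower) and 9.05% of those above the median. Without overlap of the strains, 8 genes were above and 4 below in females (9.95% and 10.6% of all probe sets), and 9 were above and 5 below in males (11.2% and 10.5%). The genes called in each sex were the same for 6: Acacb, Elovl5, Fads1, Mid1ip1, Mogat1 and Thrsp, each with the same direction in females and males. Scd1, Lpin2 and Acsl3 were called in females but not in males, and Lpin1 in males but not in females. Of these only Mogat1 differed between the sexes by the interaction test, which compares the strain difference in males with that in females and called 0.141% of all probe sets (0.066% with a larger difference in males, as for Mogat1). In sign, 27 of the 35 strain differences ran the same way in females and males.

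**Figure D2:**
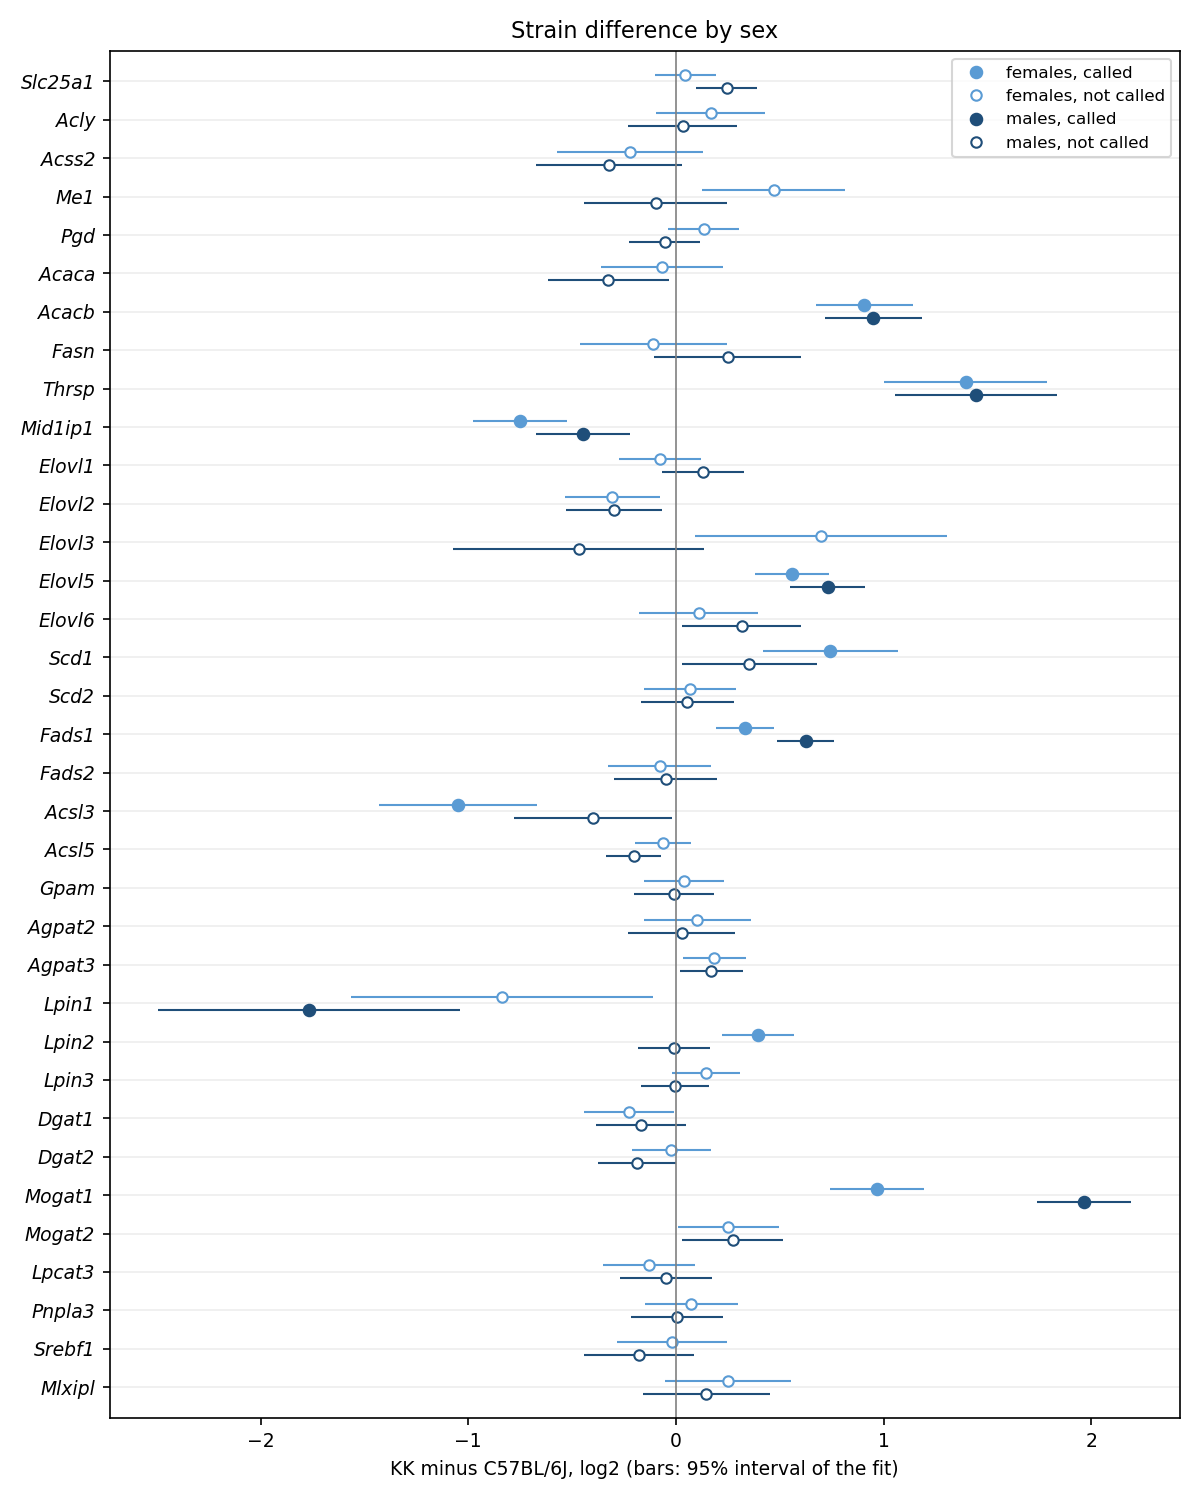
KK minus C57BL/6J difference on the log2 scale for each of the 35 genes in females (light) and males (dark), with 3 mice per group; bars are 95% intervals of the fit, filled points are called and open points are not. The intervals of Mogat1 in females (0.74 to 1.20) and males (1.74 to 2.19) do not meet, while those of Thrsp and Acacb lie almost on each other.

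Sequences before the gene start are shown for 5 genes: Thrsp and its paralog Mid1ip1, which moved in opposite directions, Elovl5, which rose in both sexes, and Mogat1 and Acsl3, which are adjacent protein-coding genes on chromosome 1 and also moved in opposite directions. Each is the 250 bases before the start in RefSeq annotation of GRCm38.p6, 5′ to 3′ on the gene's strand. They lie at chr7:97417551-97417800 on the minus strand for Thrsp and, all on the plus strand, at chrX:10717115-10717364 for Mid1ip1, chr9:77917115-77917364 for Elovl5, chr1:78510810-78511059 for Mogat1 and chr1:78657575-78657824 for Acsl3. Capitals mark CCAAT on either strand (bound by NF-Y, printed ATTGG when it is on the other strand) and the E-box CACGTG.
Thrsp: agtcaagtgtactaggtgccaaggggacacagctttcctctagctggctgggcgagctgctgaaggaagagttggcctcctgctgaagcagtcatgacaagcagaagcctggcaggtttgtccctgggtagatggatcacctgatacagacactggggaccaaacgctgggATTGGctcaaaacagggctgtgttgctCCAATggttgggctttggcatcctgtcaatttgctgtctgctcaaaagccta
Mid1ip1: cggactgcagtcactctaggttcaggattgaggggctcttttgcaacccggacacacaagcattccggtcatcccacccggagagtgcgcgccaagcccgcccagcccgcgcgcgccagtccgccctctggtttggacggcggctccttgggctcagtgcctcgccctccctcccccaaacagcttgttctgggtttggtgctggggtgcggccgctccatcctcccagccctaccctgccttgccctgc
Elovl5: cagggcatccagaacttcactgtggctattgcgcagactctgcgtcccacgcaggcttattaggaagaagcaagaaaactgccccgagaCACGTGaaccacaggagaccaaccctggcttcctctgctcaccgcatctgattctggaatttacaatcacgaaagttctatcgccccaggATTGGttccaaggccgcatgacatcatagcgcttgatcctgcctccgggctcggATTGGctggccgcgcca
Mogat1: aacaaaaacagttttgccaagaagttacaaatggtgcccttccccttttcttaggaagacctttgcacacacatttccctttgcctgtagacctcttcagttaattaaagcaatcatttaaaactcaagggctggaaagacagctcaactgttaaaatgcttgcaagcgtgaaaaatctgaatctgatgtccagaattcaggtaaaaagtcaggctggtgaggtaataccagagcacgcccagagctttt
Acsl3: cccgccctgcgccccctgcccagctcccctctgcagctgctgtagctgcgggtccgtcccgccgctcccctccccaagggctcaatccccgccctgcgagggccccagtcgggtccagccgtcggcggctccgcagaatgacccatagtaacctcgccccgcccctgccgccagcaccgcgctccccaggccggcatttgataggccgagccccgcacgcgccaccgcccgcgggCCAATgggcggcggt
RefSeq windows were found for 28 of the 35 genes, 39 windows in all. CCAAT was present on either strand in 18 of the 39 (46.2%), against 33.8% of all 32851 windows. The E-box was in 4 (10.3%, against 6.02%), those of Elovl5, Lpin2, Mlxipl and Slc25a1. The sterol regulatory element TCACNCCAC, the type of site that SREBP binds, was in 1 (2.56%, against 1.05%), a window of Mlxipl, and TATAAA in 1 (2.56%, against 12.4%), that of Acacb. Both this Mlxipl window and the Acacb window, like some others of the 39, lie inside the gene and not before its first start. Direct repeats of AGGTCA with 4 bases between them, the kind that LXR binds, and with 1 base between them, the kind that PPAR binds, were in 0 of the 39, and in 0.0152% and 0.0335% of all windows. All 6 motifs were searched on both strands and no match of one overlapped another in the windows shown.

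The genes that supply carbon and NADPH were not called between the strains. Slc25a1 carries citrate out of the mitochondrion, Acly cleaves it, Acss2 makes acetyl-CoA from acetate, and Me1 and Pgd produce NADPH. Over both sexes Slc25a1 differed by 0.14 (SE 0.05, adjusted p = 0.0748), Acly by 0.10 (adjusted p = 0.597), Acss2 by -0.27 (adjusted p = 0.172), Me1 by 0.19 (adjusted p = 0.388) and Pgd by 0.04 (adjusted p = 0.796). The Slc25a1 values nevertheless ordered by group in males: they were 10.29, 10.31 and 10.40 in C57BL/6J males and 10.53, 10.59 and 10.62 in KK males. Those groups do not overlap, with KK above as for 11.2% of all probe sets, and the difference of 0.24 had an adjusted p of 0.0611. Without KK female 1 Slc25a1 was called over both sexes (0.17, adjusted p = 0.0373) and in males (0.24, adjusted p = 0.0464), and after quantile normalization it was called in both too (0.21 and 0.31). In all it was called under 5 of 19 alternatives over both sexes and 5 of 20 in males. KK females have no part in the male difference. Me1 was higher in KK females by 0.47 (SE 0.16, adjusted p = 0.117) and differed by -0.10 in males. The Me1 difference in females was called under 6 of 20 alternatives: after quantile (adjusted p = 0.0465) or loess normalization (0.0398), with array weights (0.0120), with the interquartile range as covariate (0.0181), without KK female 2 (0.63, 0.0336) and with the replicate number as a block (0.0280).

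Among the genes of chain synthesis, Thrsp and Acacb rose and Mid1ip1 fell, while Acaca and Fasn were not called. Thrsp encodes Spot 14, a small protein that rises with lipogenesis and acts on acetyl-CoA carboxylase together with its paralog MIG12, the product of Mid1ip1. Thrsp was 9.90, 10.06 and 9.48 in C57BL/6J females and 10.21, 9.75 and 10.01 in C57BL/6J males, against 11.10, 11.14 and 11.38 in KK females and 11.78, 11.37 and 11.16 in KK males. Every KK mouse lay above every C57BL/6J mouse, and the difference was 1.42 (SE 0.13, 2.68-fold, adjusted p = 1.44e-05). It was 1.39 in females and 1.44 in males.

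Mid1ip1 moved the other way. Its values were 8.19, 8.42 and 8.48 in C57BL/6J females and 8.14, 8.11 and 8.09 in C57BL/6J males, against 7.71, 7.53 and 7.61 in KK females and 7.79, 7.43 and 7.78 in KK males. All KK values lay below all C57BL/6J values, and Mid1ip1 fell by 0.60 (SE 0.07, adjusted p = 0.000179), with -0.75 in females and -0.45 in males. The call in males (adjusted p = 0.0261) was lost without C57BL/6J male 1, 2 or 3 (adjusted p = 0.0811, 0.0762 and 0.0732), without KK male 2 (-0.33, adjusted p = 0.0836) and when only the males were fitted (adjusted p = 0.0556). The 95% intervals over both sexes were 1.14 to 1.70 for Thrsp and -0.76 to -0.44 for Mid1ip1.

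Acaca and Acacb encode the 2 acetyl-CoA carboxylases. The first makes the cytosolic malonyl-CoA used for synthesis, and the second sits at the mitochondrion, where its malonyl-CoA restrains fatty acid entry. Acacb was 8.78, 8.65 and 8.58 in C57BL/6J females, 8.08, 8.48 and 8.45 in C57BL/6J males, 9.49, 9.64 and 9.60 in KK females and 9.43, 9.20 and 9.22 in KK males. The strains did not overlap and Acacb rose by 0.93 (SE 0.08, 1.90-fold, adjusted p = 6.4e-06). Acaca differed by -0.20 (95% interval -0.40 to 0.01, adjusted p = 0.253), an interval that lies wholly below that of Acacb (0.76 to 1.09). Fasn, the synthase itself, differed by 0.07 (95% interval -0.18 to 0.32, adjusted p = 0.826). Its group means were 10.18 (SD 0.14) in C57BL/6J females, 10.07 (SD 0.09) in KK females, 9.29 (SD 0.35) in C57BL/6J males and 9.54 (SD 0.26) in KK males, with both male groups below both female groups.

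The elongases differed among themselves. Elovl5, which lengthens polyunsaturated fatty acids and some monounsaturated ones, was 11.75, 11.90 and 12.00 in C57BL/6J females, 11.28, 11.51 and 11.26 in C57BL/6J males, 12.45, 12.44 and 12.42 in KK females and 12.12, 12.06 and 12.06 in KK males. The lowest KK value was above the highest C57BL/6J value, and Elovl5 rose by 0.64 (SE 0.06, 1.56-fold, adjusted p = 1.54e-05). Elovl2, which carries out the next elongations toward docosahexaenoic acid, fell by 0.30 (SE 0.07, adjusted p = 0.0192). Its means were 11.90 (SD 0.10) and 11.59 (SD 0.06) in females of C57BL/6J and KK and 11.69 (SD 0.24) and 11.39 (SD 0.06) in males, and the strains overlapped through C57BL/6J male 1 at 11.41. Elovl2 was called in neither sex alone, and under 2 of 20 alternatives in females and 1 of 20 in males. Without that mouse it was called in females (-0.31, adjusted p = 0.0273) and in males (-0.44, adjusted p = 0.0101). C57BL/6J male 1 has no part in the female difference, so only the shared spread changed there.

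Elovl6, which takes palmitate to stearate, differed by 0.21 (adjusted p = 0.192) and Elovl1, an elongase of very long saturated chains, by 0.03 (adjusted p = 0.89). Elovl3, an elongase with a strong male bias in mouse liver, differed by 0.11 over both sexes (adjusted p = 0.833) and is described with the sexes. That average joins opposite signs: means of C57BL/6J and KK were 8.36 and 9.06 in females and 11.53 and 11.06 in males. Neither sex was called in the main fit, and each was called under 1 of 20 alternatives. These were array weights in females (0.96, adjusted p = 0.0455) and the fit of only the males (-0.47, adjusted p = 0.0290).

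Of the 4 desaturase genes, Scd1 and Fads1 rose and Scd2 and Fads2 were not called. Scd1 puts the first double bond into palmitate and stearate, and Fads1 and Fads2 are the delta-5 and delta-6 desaturases of polyunsaturated fatty acid synthesis. Fads1 was 11.56, 11.56 and 11.61 in C57BL/6J females, 11.15, 11.15 and 11.23 in C57BL/6J males, 11.98, 11.95 and 11.80 in KK females and 11.81, 11.78 and 11.81 in KK males. It rose by 0.48 (SE 0.04, 1.39-fold, adjusted p = 2.08e-05) with no overlap of the strains, by 0.33 in females and by 0.62 in males. When only the females were fitted, its adjusted p there was 0.0502. Fads2, the adjacent gene on chromosome 19, differed by -0.06 (95% interval -0.24 to 0.11, adjusted p = 0.748), so of these neighbours 1 was called.

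Scd1 was 12.55, 12.36 and 13.02 in C57BL/6J females and 13.13, 12.95 and 12.69 in C57BL/6J males, against 13.35, 13.32 and 13.48 in KK females and 13.22, 13.35 and 13.26 in KK males. The 6 KK values all exceeded the 6 C57BL/6J values, and they were packed more closely, with SDs of 0.09 and 0.07 against 0.34 and 0.22. Scd1 rose by 0.55 (SE 0.11, 1.46-fold, adjusted p = 0.00461), with a call in females (0.74, adjusted p = 0.0105) and none in males (0.35, adjusted p = 0.25). The interaction of -0.39 was not called (95% interval -0.85 to 0.07, adjusted p = 0.832). Scd2, which is expressed mainly outside adult liver and lies near Scd1 with Scd4 between them, differed by 0.06 (adjusted p = 0.729).

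Acsl3 and Acsl5 encode acyl-CoA synthetases, which activate fatty acids, and ACSL3 is found on growing lipid droplets. Acsl3 fell in KK by 0.73 (SE 0.12, adjusted p = 0.00205). It was 8.06, 8.39 and 8.42 in C57BL/6J females, 7.32, 7.72 and 7.58 in C57BL/6J males, 7.50, 6.78 and 7.44 in KK females and 7.18, 7.0 and 7.23 in KK males. C57BL/6J females stood above the other groups, which lay closer to each other. The difference was called in females (-1.05, adjusted p = 0.00318) and not in males (-0.40, adjusted p = 0.269), and the interaction of 0.65 was not called (SE 0.25, adjusted p = 0.716). Acsl5 differed by -0.13 (SE 0.04, adjusted p = 0.073), from a spread within groups that was the smallest of the 35 genes (pooled SD 0.05).

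Over both sexes the largest called rise and fall of the 35 genes, Mogat1 (1.47) and Lpin1 (-1.30), were in glycerolipid assembly; in females Thrsp and Acsl3 moved further. Mogat1 encodes a monoacylglycerol acyltransferase, which makes diacylglycerol by a route beside the glycerol phosphate pathway, is low in normal adult liver and is a target of PPARgamma in fatty liver. Mogat1 was 4.18, 4.32 and 4.60 in C57BL/6J females and 4.31, 4.26 and 4.37 in C57BL/6J males, inside the range of absent transcripts. It was 5.26, 5.43 and 5.32 in KK females and 6.22, 6.18 and 6.43 in KK males, so both KK groups were above C57BL/6J and KK males were above KK females.

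The Mogat1 difference was 0.97 in females (SE 0.10, 1.96-fold, adjusted p = 0.000123) and 1.96 in males (SE 0.10, 3.90-fold, adjusted p = 3.88e-07). As the C57BL/6J values lay in the range of absent transcripts, these folds may be measured from background and not from a detected level. The strain difference was larger in males by 1.0 (SE 0.15, 95% interval 0.68 to 1.32, adjusted p = 0.0184), which made Mogat1 the only one of the 35 genes with a called interaction. The adjusted p was 0.0613 without C57BL/6J male 2, 0.0533 without C57BL/6J male 3, 0.0585 without KK female 1, 0.0543 without KK female 3 and 0.0504 without KK male 1, with differences of 0.96 to 1.02, and 0.0840 (0.93) after loess normalization. Mogat2, a relative that is best known in the intestine and lies beside Dgat2, differed by 0.26 (SE 0.08, adjusted p = 0.0516). Mogat2 was called under 5 of 18 alternatives. Among them were the fits without C57BL/6J female 2 (0.30, adjusted p = 0.0434), KK female 3 (0.29, adjusted p = 0.0461) and KK male 1 (0.31, adjusted p = 0.0305).

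The lipins are the phosphatidate phosphatases that make diacylglycerol in the main pathway, and Lpin1 is also known as a gene induced by fasting that acts with PGC-1alpha. Lpin1 was 9.96, 9.27 and 9.50 in C57BL/6J females and 10.68, 9.53 and 10.13 in C57BL/6J males, against 8.62, 9.09 and 8.51 in KK females and 8.40, 8.98 and 7.67 in KK males. All KK mice lay below all C57BL/6J mice although Lpin1 varied more within groups than any other of the 35 genes (pooled SD 0.49). It fell by 1.30 (SE 0.24, adjusted p = 0.00315), with -1.77 in males (SE 0.33, adjusted p = 0.00851) and -0.84 in females (adjusted p = 0.202). In females it was called under 1 of 20 alternatives, array weights (-1.12, adjusted p = 0.0333). The interaction of -0.93 was not called (95% interval -1.96 to 0.10).

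Lpin2, the more abundant lipin of liver in most accounts, rose in females. It was 10.01, 9.93 and 10.15 in C57BL/6J females and 10.44, 10.38 and 10.45 in KK females, without overlap, and it rose by 0.39 (SE 0.08, adjusted p = 0.011). In males it differed by -0.01 (adjusted p = 0.98), and the interaction of -0.40 (SE 0.11) had an adjusted p of 0.436. Without C57BL/6J female 2 the adjusted p in females was 0.0505. The call over both sexes (0.19, adjusted p = 0.0454) was lost in 10 of the 12 fits that each left out 1 array, all but those without C57BL/6J female 3 or KK male 2 (adjusted p from 0.0603 to 0.103). Lpin3 differed by 0.07 (adjusted p = 0.534).

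Agpat3, an acyltransferase that adds the second fatty acid, rose by 0.18 (SE 0.05, adjusted p = 0.0361), a change of 1.13-fold that was called in neither sex. That call was lost in 9 of the 12 fits that each left out 1 array and held in those without female 3 or male 1 of C57BL/6J or male 3 of KK (adjusted p from 0.0519 to 0.0903 where lost). The other glycerolipid members were not called over both sexes: Gpam, the mitochondrial enzyme that acylates glycerol phosphate, differed by 0.01 (95% interval -0.12 to 0.15), Agpat2 by 0.06, and the final acyltransferases Dgat1 by -0.20 (adjusted p = 0.101) and Dgat2 by -0.11 (adjusted p = 0.361). Dgat1 was called under 3 of 19 alternatives, among them the fit without C57BL/6J female 2 (-0.25, adjusted p = 0.0294). Lpcat3, which puts polyunsaturated chains into phospholipids, differed by -0.09, and Pnpla3, a lipid droplet protein induced by SREBP-1c, by 0.04 (95% interval -0.12 to 0.20). Like Mogat1, Pnpla3 (5.70 to 6.11), Scd2 (5.37 to 5.78) and Mogat2 (5.17 to 5.75) had means below the median probe set. Whether they were detected was not examined.

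The transcription factor genes were not called between the strains at the RNA level, which does not show that their levels were equal. Srebf1 was 9.14 (SD 0.13) in C57BL/6J females, 8.97 (SD 0.23) in C57BL/6J males, 9.12 (SD 0.13) in KK females and 8.79 (SD 0.14) in KK males, and it differed by -0.10 (95% interval -0.29 to 0.09, adjusted p = 0.605). Its isoforms were not measured separately here. Mlxipl, the gene of ChREBP, was 9.64 (SD 0.16), 9.61 (SD 0.14), 9.89 (SD 0.26) and 9.76 (SD 0.20) in the same order and differed by 0.20 (95% interval -0.02 to 0.41, adjusted p = 0.268). Across the 23 genes not called over both sexes, the differences ran from -0.27 (Acss2) to 0.26 (Mogat2) and the 95% intervals reached from -0.52 to 0.54.

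**Figure D3:**
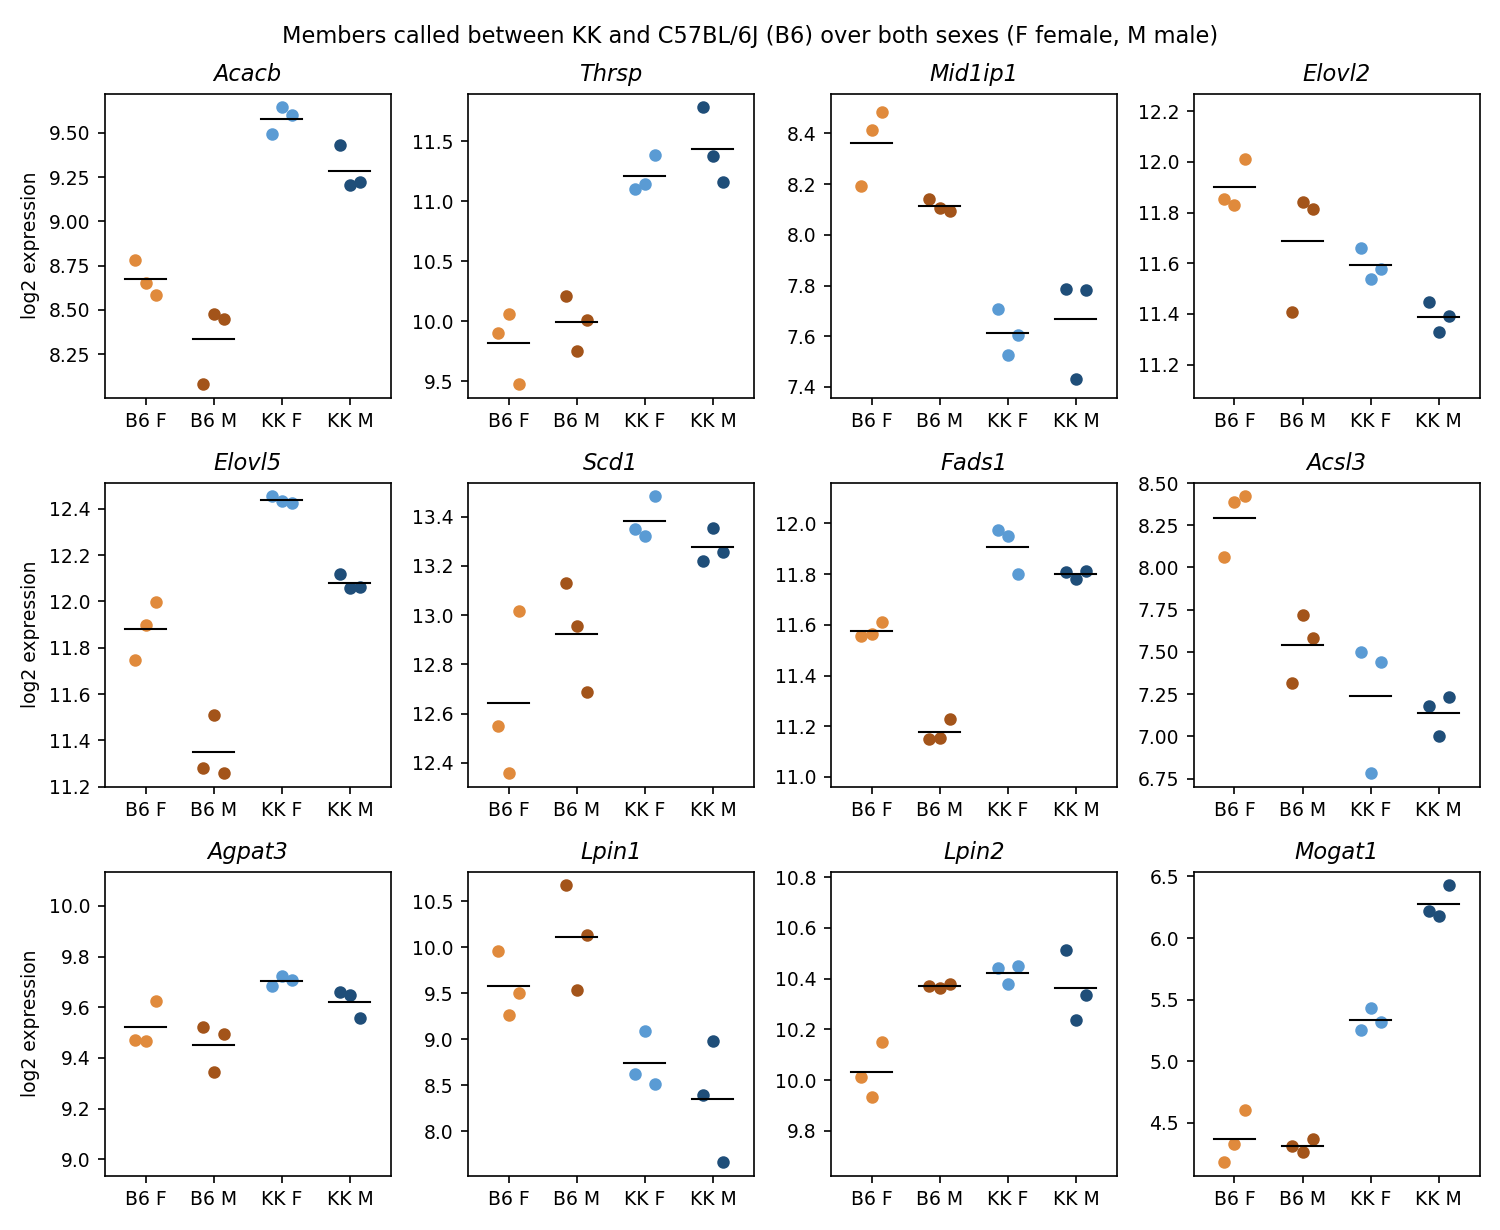
Log2 expression of the 12 genes called between the strains over both sexes, in C57BL/6J (B6) and KK females (F) and males (M); points are mice, lines are group means, and each panel has its own vertical axis. Mogat1 rises in steps from C57BL/6J to KK females to KK males, Lpin1 scatters most, and Thrsp, Acacb, Elovl5, Fads1, Scd1, Mid1ip1 and Lpin1 keep the strains apart.

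Between the sexes, Elovl3 stood far above the rest. In C57BL/6J it was 8.44, 8.54 and 8.10 in females and 11.43, 11.57 and 11.58 in males, and in KK it was 8.48, 8.76 and 9.93 in females and 11.17, 10.90 and 11.11 in males. Males exceeded females without overlap in each strain, and KK female 3 stood above the other females. Elovl3 was higher in males by 3.17 in C57BL/6J (SE 0.28, 8.98-fold, adjusted p = 7.37e-05) and by 2.0 in KK (SE 0.28, 4.00-fold, adjusted p = 0.00298). The difference between these was -1.17 (SE 0.39, 95% interval -2.02 to -0.31) and was not called (adjusted p = 0.631).

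In C57BL/6J 1 of the 35 genes rose in males and 3 fell, 11.4% of the list against 1.03% of all probe sets (0.358% higher, 0.674% lower) and 1.84% of those with a mean above the median. Beside Elovl3, Fasn was lower in males by 0.89 on the log2 scale (adjusted p = 0.0185), Elovl5 differed by -0.53 (SE 0.08, adjusted p = 0.00634) and Fads1 by -0.40 (SE 0.06, adjusted p = 0.00725). Fasn was 10.03, 10.29 and 10.22 in C57BL/6J females and 8.96, 9.25 and 9.65 in C57BL/6J males. Those values do not overlap. Males were above females without overlap in 3 of the 35 genes and below in 8, against 6.27% and 6.82% of all probe sets. The call of Fasn was lost without C57BL/6J female 2 (adjusted p = 0.0890), female 3 (0.0799), male 1 (0.0647) or male 2 (0.0785), and those of Fasn and Elovl5 when only C57BL/6J was fitted (0.0620 and 0.0626). Acsl3 (-0.75, adjusted p = 0.0806) and Lpin2 (0.34, adjusted p = 0.0829) missed the threshold. Acsl3 was called under 5 of 20 alternatives and Lpin2 under 4 of 20. Without KK female 2 the adjusted p of Acsl3 was 0.0106. That mouse has no part in the C57BL/6J difference, so only the shared spread changed.

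In KK 3 genes rose in males and 1 fell, again 11.4% of the list, against 2.17% of all probe sets (0.698% higher, 1.47% lower) and 3.68% of those with a mean above the median. Males lay above females without overlap in 4 genes and below in 10, against 10.2% and 8.41% of all probe sets. Beside these, 5 of 6 Kupffer cell markers were called lower in KK males than in KK females (median -1.05). In C57BL/6J all 6 were lower in males (median -0.42) and 0 were called (limma, 2 at an unadjusted p under 0.05). Medians of 5 stellate and 5 sinusoidal endothelial markers were -0.38 and -0.27 in C57BL/6J and -0.41 and -0.26 in KK. Of these, 1 and 1 were higher in males in C57BL/6J and 2 and 1 in KK. Of 6 hepatocyte markers 1 was called higher in KK males and 5 were lower in sign. Of 7 fasting response genes 2 were called lower in KK males than in KK females, 6 were lower in sign and 1 higher (median -0.48). In C57BL/6J 3 were lower and 4 higher (median 0.10), and 0 were called (limma, 1 at an unadjusted p under 0.05). The part of cell makeup and fasting state in the sex differences of either strain was not tested. Mogat1 rose by 0.94 (SE 0.10, adjusted p = 0.000707), beside a difference of -0.06 in C57BL/6J (adjusted p = 0.999). Slc25a1 was higher by 0.31 (SE 0.07, adjusted p = 0.0337) and Elovl5 lower, at -0.36 (SE 0.08, adjusted p = 0.0458). Fads1 differed by -0.11 (adjusted p = 0.431) and Fasn by -0.53 (SE 0.16, adjusted p = 0.13). The Slc25a1 call was lost without C57BL/6J female 1 (adjusted p = 0.0511), KK female 1 (0.159) or KK male 1, 2 or 3 (0.0762, 0.116 and 0.0772). That of Elovl5 was lost without C57BL/6J female 2, male 1 or male 3 or any one KK array (adjusted p from 0.0529 to 0.170). It was also lost after quantile normalization (0.0597) and with the interquartile range as covariate (0.0719). When only KK was fitted, the calls of Slc25a1 (0.139) and Elovl5 (0.0617) were both lost. The Elovl5 call held under 8 of 20 alternatives and that of Slc25a1 under 14 of 20. In sign, 21 of the 35 genes were lower in males in each strain and 6 were higher in each, with medians of -0.06 in C57BL/6J and -0.10 in KK beside 0.01 and 0.03 over all probe sets.

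**Figure D4:**
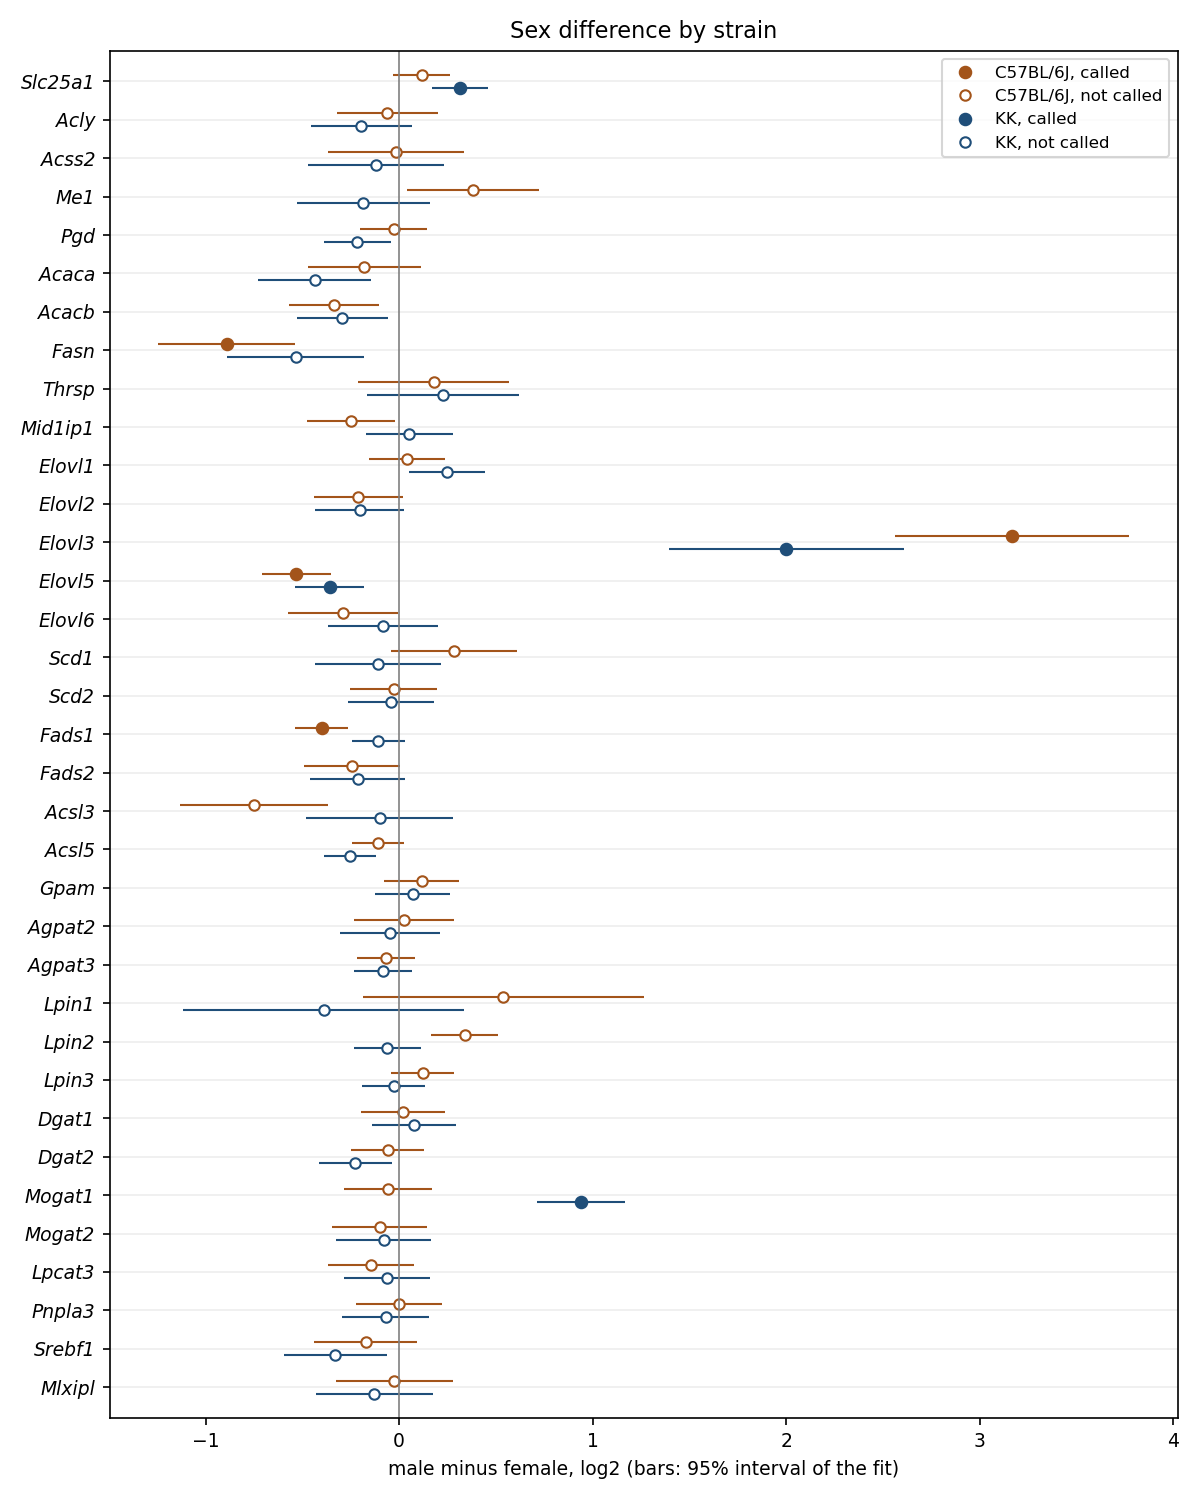
Male minus female difference on the log2 scale for each of the 35 genes in C57BL/6J (brown) and KK (blue), with 3 mice per group; bars are 95% intervals of the fit, filled points are called and open points are not. Elovl3 lies far to the right in each strain (3.17 and 2.0), Mogat1 is near 0 in C57BL/6J and at 0.94 in KK, and most other points lie left of 0.

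Genes of the same pathways outside the list were counted over both sexes, where 11.7% of all probe sets were called. The called shares of the lists below were 25%, 50%, 33.3%, 20% and 13.0% in turn. The last was close to that background. The 20% and 25% were near the 20.2% called among probe sets with a mean above the median. How many genes of these lists lay above that median was not counted. Of 12 other elongation and desaturation genes 2 rose and 1 fell: Tecr (0.42) and Hacd1 (0.39), which serve the last and the third step of each elongation round, rose, and Hacd3 (-0.50), of the same family as Hacd1, fell. Of 16 measured glycerolipid and phospholipid genes 5 rose and 3 fell, with the glycerol phosphate acyltransferase genes Gpat3 (0.98, SE 0.05, adjusted p = 6.28e-08) and Gpat4 (0.32) higher and Cept1 (-0.36), a phospholipid synthase gene, lower. Of 15 genes of substrate and NADPH supply 4 rose and 1 fell, among them the pyruvate kinase gene Pklr (0.50), Pcx (0.32), pyruvate carboxylase, and Tkt (0.22), transketolase. Of 5 other acyl-CoA synthetase genes 1 fell, the bile acid ligase gene Slc27a5 (-0.64). Of 23 regulators of lipogenesis 2 rose and 1 fell: the AMPK catalytic subunit gene Prkaa2 (0.32), the ChREBP relative Mlxip (0.20) and the ChREBP partner Mlx (-0.18).

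Genes of fasting, the clock and other cells were read beside these results, and their counts stand against 11.7% of all probe sets with the sexes averaged, 6.5% for females and 5.15% for males. Of 7 fasting response genes, Cpt1a fell over both sexes (-0.36), while in KK females Pck1 (0.58), G6pc (0.75) and Angptl4 (0.42) rose and in males none of the 7 was called (limma, 2 at an unadjusted p under 0.05). Of 15 clock genes Bhlhe41 (0.47) and Per2 (0.38) rose and Nr1d1 (-0.36) fell, and the labels give no hour of collection. All 6 Kupffer cell markers were lower on average in KK over both sexes (median -0.39) and 3 of them fell: Marco (-0.74), Adgre1 (-0.59) and Clec4f (-0.41). The median of the 6 was -0.04 in females, where 2 were higher, and -0.71 in males, where all 6 were lower. Their summed level ranged from 11.5 to 11.7 log2 in C57BL/6J females, 11.0 to 11.5 in C57BL/6J males, 11.5 to 12.2 in KK females and 10.3 to 10.8 in KK males. Of 5 sinusoidal endothelial markers 1 fell, Lyve1 (-0.74). Of 6 hepatocyte markers 1 fell over both sexes, and in females 1 rose and 1 fell. In males 0 of the 6 were called (limma, 2 at an unadjusted p under 0.05). By limma 0 of 5 stellate cell markers (0 at an unadjusted p under 0.05), 0 of 4 cholangiocyte markers (1) and 0 of 5 white adipose markers (0) were called. The 5 adipose markers averaged 4.94 to 5.09 in every array. Adipoq and Lep, which define fat cells, averaged 4.10 to 4.25 in the 4 groups, inside the range of absent transcripts, while Plin1 (5.79 to 5.95) and Fabp4 (6.12 to 6.25) lay above it. The part of fasting state, hour and cell makeup in the strain differences was not tested.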

How the data were processed

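Liver RNA of 12 mice was measured on 1 whole-transcript Affymetrix array each, from 300 ng of total RNA. The deposited log2 values were made by the authors with RMA and the affy package, per the submitters' processing notes; versions and background settings are not given in the sources used here. RMA equalises arrays, so a shift shared by most genes would not be seen. Arrays give no counts, so the number of arrays limits precision. Gene symbols came from the platform annotation, which gave exactly 1 symbol to 18786 probe sets.

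All 21212 probe sets of all 12 arrays were fitted in R 4.3.3 with limma 3.58.1 (lmFit, eBayes; 11.99 total degrees of freedom) with 1 mean per strain and sex. The 6 two-sided comparisons were KK against C57BL/6J with the sexes averaged and within each sex, males against females within each strain, and the interaction. Intervals are 95% intervals of the fit. The fit was tested on simulated data. All 35 genes are named; from each other list, at most 3 called genes with the smallest adjusted p over both sexes. Genes of other lists in the sex-specific sentences, and the adipose markers, were named after their values were seen. The genes and lists were chosen with earlier results of these data known. Alternatives were other normalizations, an expression filter, other variance models, the replicate block, the interquartile range as covariate, fits of only the groups compared, and leaving out each array.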

Additional observations from a re-analysis of the deposited data

Results flagged for a closer look

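Mogat1 was the 1 gene of the 35 whose strain difference differed between the sexes by the interaction test. KK exceeded C57BL/6J by 1.96 in males and by 0.97 in females, and the difference between these was 1.0 (SE 0.15, adjusted p = 0.0184 by limma over all probe sets). The call was lost in 5 of 12 fits that each left out 1 array (without C57BL/6J male 2 or 3, KK female 1 or 3 or KK male 1, adjusted p from 0.0504 to 0.0613) and after cyclic loess normalization (0.0840). All 6 C57BL/6J values lay in the range of absent transcripts.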

How the results depend on the processing

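Of the 12 genes called over both sexes, all but Agpat3 and Lpin2 kept direction and call under every alternative in which they were tested, and no called value of the 35 genes changed sign in any comparison. The filter on the mean left Mogat1 untested. The number of called genes stayed within 1.5 times the main number, except as follows. In males it was 11 in place of 7 with array weights. For the sexes of KK it was 2 in place of 4 when only KK was fitted, and 2 to 4 with one array left out. The interaction count of 1 was 0 after cyclic loess normalization and 0 with the filter on the mean, and 0 to 1 with one array left out, where limma still gave Mogat1 a difference of 0.88 or more. Same-numbered arrays of different groups had correlations of -0.36 to 0.48 in their deviations, with 15 of 18 above 0 and 10 above 0.1, and 8 of 12 arrays correlated best with their own number, which is a hint of pairing from the data and not from the design. The labels state no shared batch and not every pair was above 0.1, so the main fit has no block. With the replicate number as a block the counts were 15 over both sexes, 10 in females, 8 in males, 4 and 5 between the sexes of C57BL/6J and KK, and 1 for the interaction, and it added calls over both sexes for Slc25a1 (adjusted p = 0.0371), Dgat1 (0.0181) and Mogat2 (0.0403), for Me1 in females (0.0280), Slc25a1 in males (0.0299) and Acsl5 between the sexes of KK (0.0418). No scanner files were used, so background correction and detection were not examined.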

Other observations

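Within groups the 35 genes did not scatter alike between mice. In KK male 1, 27 of the 35 genes lay above the mean of their group, with a median deviation of 0.06, against 50.7% of all probe sets. In KK male 2, 10 lay above it, with a median of -0.05, against 50.9% of all probe sets. Among C57BL/6J mice, male 3 had 26 above its group mean and female 1 had 10, against 50.3% and 44.3% of all probe sets. The interquartile range of the arrays was 2.74, 2.64 and 2.87 in KK males 1, 2 and 3. It was 2.75, 2.80 and 2.91 in C57BL/6J males and 2.84, 2.74 and 2.97 in C57BL/6J females. As 31 of the 35 genes lay above the median probe set, all probe sets are an unlike reference. The part of array spread in these counts was not tested. Thrsp, Fasn and Acacb were each highest in KK male 1 among the KK males, at 11.78, 9.83 and 9.43, while Lpin1 there was highest in KK male 2, at 8.98.

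Of the 3 pairs of adjacent genes in the list, both genes were called in 1. Mogat1 (1.47) and Acsl3 (-0.73), with no protein-coding gene between them on chromosome 1, were called in opposite directions over both sexes. Of Fads1 (0.48) and Fads2 (-0.06) on chromosome 19 only the first was called, and Dgat2 (-0.11) and Mogat2 (0.26) on chromosome 7 were not called.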
